A study of Mus musculus with 24 samples.

Results

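The genes described here are 8 members of the bone morphogenetic protein (BMP) pathway in mouse embryonic stem cells: the ligand Bmp4, the 4 inhibitor of differentiation genes Id1, Id2, Id3 and Id4, and the inhibitors Smad6, Smad7 and Bambi. They were taken by gene symbol from a table of 23284 genes, and all 8 were found and passed the filter on low counts, which left 14970 genes for testing. Poly(A) RNA from C57BL/6 embryonic stem cells was sequenced in 24 libraries, 2 for each of 4 genotypes in each of 3 states. The states were the culture labelled 3i and embryoid bodies, the free-floating aggregates in which stem cells begin to differentiate, at day 1 and day 2. The series title concerns SKP1A, a part of SCF ubiquitin ligases, and the degradation of PRC2, the histone-methylating Polycomb complex of which EED is a core subunit.

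The line called f/f carried a conditional Eed allele and was labelled as wild type and not treated with tamoxifen. The KO line had Eed deleted by 4-OH tamoxifen, given at 800 nM according to the protocol. The lines called KO+WT and KO+N-KR were KO cells that also carried wild-type EED or the form labelled N-KR, an abbreviation that the labels do not spell out, and both were labelled as tamoxifen-treated and as Eed KO. All ES cells were kept on mouse embryonic fibroblast feeders in medium with serum and LIF, a cytokine that sustains self-renewal. The protocol shared by all libraries also describes MG132, a proteasome inhibitor, which no library's name mentions. Each genotype is 1 line here, the labels do not say how many clones it came from, and only f/f was untreated, so genotype, tamoxifen and the history of a line cannot be told apart in comparisons with f/f. In comparisons among the treated lines, the added EED and the history of a line cannot be told apart.

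BMP ligands bind pairs of serine/threonine kinase receptors, which phosphorylate SMAD1, SMAD5 and SMAD9, and these enter the nucleus with SMAD4 and switch on target genes. The Id genes are the classic direct targets. ID proteins have a helix-loop-helix but no DNA-binding region, and they capture E proteins and so keep lineage-specific transcription factors from binding DNA. In mouse embryonic stem cells BMP4 acting through ID proteins is known to sustain self-renewal together with LIF. SMAD6 and SMAD7 are inhibitory SMADs and BAMBI is a receptor without a kinase, all induced by the signal that they dampen.

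RefSeq promoter sequences (GRCm38.p6, 250 bases before to 50 after each gene's start) were found by symbol for 5 of the 8 genes, Id2, Id3, Id4, Bmp4 and Smad6, and Id1, Smad7 and Bambi had no entry. Stretches that hold a motif known for SMAD proteins are shown because SMAD proteins, which carry the BMP signal to DNA, are known to bind such letters. The motif GGCGCC, bound by SMAD1 and SMAD5, is its own reverse complement and was found in 11.9% of 32851 promoters of the same length. Among the members it occurred once in Id2, at position -231 from the start, and once in Id4, at -148, and not in Id3, Bmp4 or Smad6. The palindromic SMAD-binding element GTCTAGAC, also its own reverse complement, was in 0.213% of promoters and occurred in Smad6 at -4. It contains the shorter element GTCT and its complement AGAC, which 88.0% of promoters hold and which was found in Id2, Id3, Bmp4 and Smad6. The stretches below are 5′ to 3′ on the gene's strand with the motif in capitals, at chr12:25096278-25096342 on the minus strand for Id2, chr13:48260928-48261013 on the plus strand for Id4 and chr9:64022056-64022103 on the minus strand for Smad6. A match describes letters and is no evidence of binding in these cells.
Id2: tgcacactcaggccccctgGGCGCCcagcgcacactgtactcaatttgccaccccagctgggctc
Id4: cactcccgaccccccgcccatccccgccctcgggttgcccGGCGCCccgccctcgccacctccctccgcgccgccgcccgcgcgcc
Smad6: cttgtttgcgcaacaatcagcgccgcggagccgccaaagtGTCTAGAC

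The libraries held 7553683 to 14426034 counts. Within a group the count differences of the 2 libraries had 1.10 to 1.18 times the binomial sampling variance, and 2 genotypes in the same state had 4.94 to 24.0 times that variance, so the libraries of a group were summed and counted as 1 sample. This left 12 samples of 18017598 to 25160294 counts and 1 sample for each genotype and state. Levels are CPM, counts scaled to a common library size with TMM factors, and 95% Poisson intervals are given for single samples and cover counting error only. Differences over states or genotypes are log2 fold changes ± SE from an additive model of genotype and state, tested with edgeR's quasi-likelihood test with Benjamini-Hochberg adjustment over 14970 genes (threshold 0.05). A genotype is then compared over 3 states and a state over 4 genotypes, and the p-values measure how evenly a difference recurs and not the spread between independent lines. Eed itself was at 131 to 219 CPM in f/f, 102 to 173 CPM in KO, 188 to 387 CPM in KO+WT and 122 to 181 CPM in KO+N-KR. The labels do not say which exons were deleted or whether the added EED was counted, so these levels check neither, and libraries go by their labels. All 6 embryonic stem cell markers were above 1 CPM in every sample, at 2721 to 5260 CPM in sum.

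Per kilobase of exon (GRCm38 annotation), the median level over the 12 samples was highest for Smad7, at 19.7 CPM per kb. Id3 and Id1 followed at 11.4 and 11.3 CPM per kb, then Id2 at 4.89, Smad6 at 2.73, Bambi at 2.04, Id4 at 1.85 and Bmp4 at 1.46 CPM per kb. Neighbours in this order overlapped in their ranges over the 12 samples. In CPM, the highest sample exceeded the lowest 10.5-fold for Id1, 8.45-fold for Bmp4, 8.05-fold for Id4 and 7.12-fold for Id2. The ratio was 3.45 for Id3, 2.61 for Smad6, 1.86 for Smad7 and 1.75 for Bambi. Between the 2 libraries of a group the largest ratio was 1.54 (Id2) and it was 1.13 for Smad7, so the spread of Id1, Id2, Id4 and Bmp4 over samples was several times that between libraries.

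**Figure D1:**
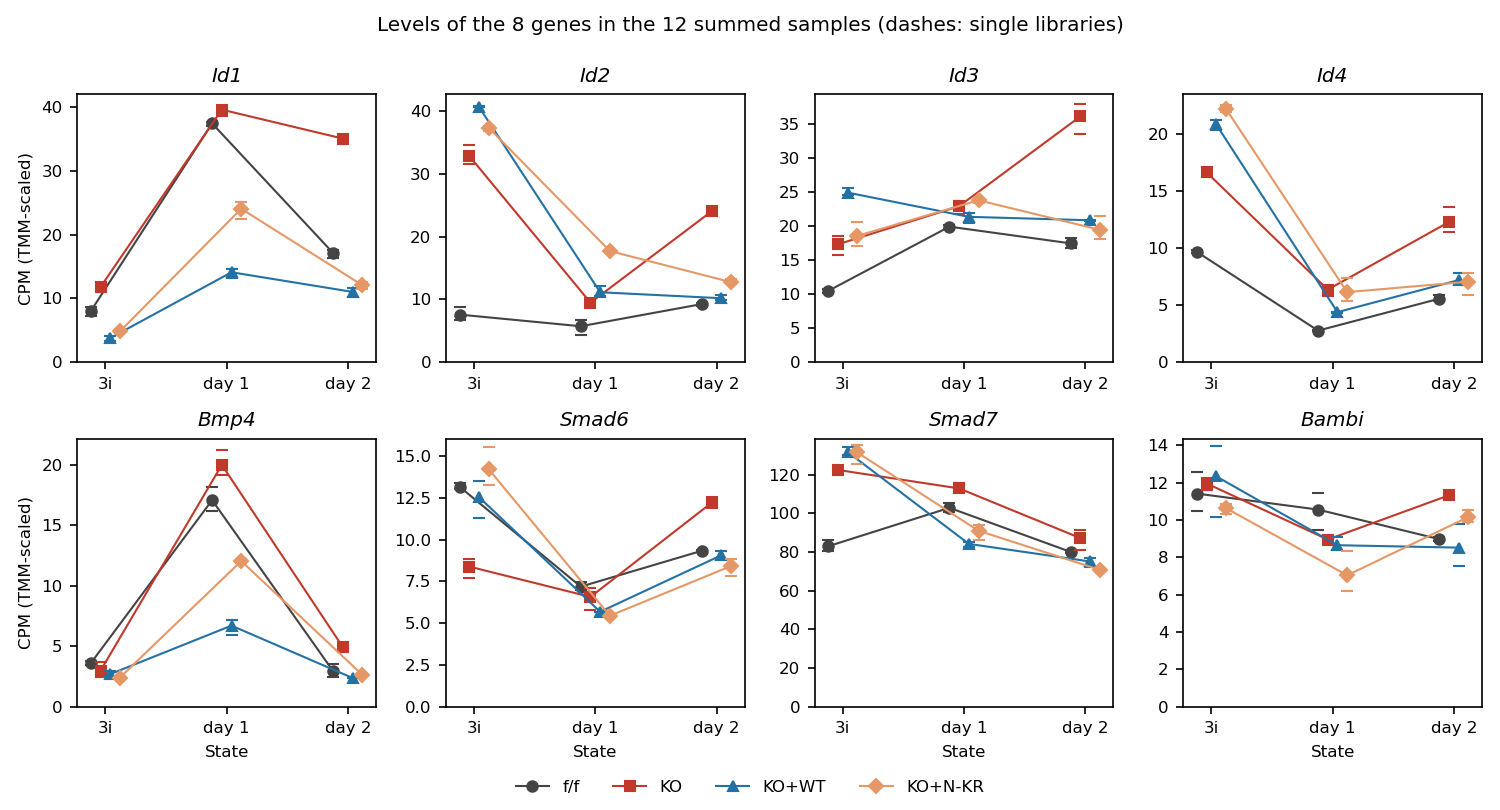
Level of each gene (y axis, TMM-scaled CPM from 0) in 3i, day 1 and day 2 (x axis) for the 4 genotypes; markers are sums of 2 libraries and dashes the single libraries. Bmp4 peaks at day 1 in every genotype, from 6.71 CPM in KO+WT to 20.0 CPM in KO. In the sums Id4 is lowest at day 1 in every genotype. The replicate 2 library of KO+N-KR is lower in Id4 at day 2 (5.89 CPM) than at day 1 (7.35 CPM).

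Bmp4, the only ligand among the members, was at 3.60 CPM at 3i, 17.1 at day 1 and 2.91 at day 2 in f/f, and at 2.98, 20.0 and 4.90 CPM in KO. In KO+WT it was at 2.69, 6.71 and 2.37 CPM and in KO+N-KR at 2.41, 12.0 and 2.63 CPM. The 4 day 1 samples all lay above the other 8 samples, whose highest was KO at day 2. Bmp4 rose from 3i to day 1 (2.20 ± 0.19, adjusted p = 3.77e-07) and fell from day 1 to day 2 (-2.08 ± 0.19, adjusted p = 1.38e-06), back to a level that did not pass the test against 3i (0.12 ± 0.21, adjusted p = 0.650). The day 1 peak differed among genotypes, in the order KO, f/f, KO+N-KR and KO+WT. The Poisson intervals of KO (18.2 to 22.0 CPM) and f/f (15.3 to 19.0 CPM) overlapped, and those of KO+N-KR (10.6 to 13.6 CPM) and KO+WT (5.63 to 7.92 CPM) overlapped neither each other nor the first pair. Over the 3 states Bmp4 was lower in KO+WT than in KO (-1.04 ± 0.23, adjusted p = 0.00858) and than in f/f (-0.80 ± 0.23, adjusted p = 0.0472). KO+N-KR against KO gave -0.67 ± 0.22 (adjusted p = 0.0541), and KO against f/f gave 0.24 ± 0.21 (adjusted p = 0.495). Without day 1, the difference between KO+WT and KO was -0.63 (adjusted p = 0.296). The antisense gene Gm15217 overlaps Bmp4 and had 0 to 11 counts per sample, and the strand setting of the counting is not given in the sources used here.

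Id1 was at 8.01 CPM at 3i, 37.4 at day 1 and 17.1 at day 2 in f/f, and at 11.8, 39.6 and 35.0 CPM in KO. KO+WT held 3.77, 14.1 and 11.0 CPM and KO+N-KR 4.82, 24.1 and 12.0 CPM. The genotypes stood in the same order in each state, with KO highest, then f/f, KO+N-KR and KO+WT, and in each genotype day 1 was the highest state and 3i the lowest. Neighbours whose Poisson intervals overlapped were KO and f/f at day 1 (37.0 to 42.3 and 34.8 to 40.2 CPM) and the 2 lines with added EED at 3i (2.94 to 4.76 in KO+WT and 3.93 to 5.85 CPM in KO+N-KR) and day 2 (9.75 to 12.4 and 10.6 to 13.7 CPM). Across genotypes Id1 rose from 3i to day 1 (2.05 ± 0.15, adjusted p = 5.67e-08), fell from day 1 to day 2 (-0.66 ± 0.13, adjusted p = 0.000921) and stayed above 3i (1.39 ± 0.15, adjusted p = 2.53e-06). The fall from day 1 to day 2 was 2.19-fold in f/f. In KO the 2 levels were 39.6 and 35.0 CPM, and their Poisson intervals overlapped (37.0 to 42.3 and 32.6 to 37.6 CPM).

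Id1 passed in 4 of the 5 genotype comparisons. It was higher in KO than in f/f (0.55 ± 0.15, adjusted p = 0.0421). It was lower than in KO both with wild-type EED (-1.61 ± 0.16, adjusted p = 7.45e-05) and with N-KR (-1.16 ± 0.16, adjusted p = 0.000532), and KO+WT lay below f/f as well (-1.06 ± 0.17, adjusted p = 0.00145). KO+N-KR against KO+WT gave 0.44 ± 0.17 (edgeR adjusted p = 0.539).

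Id2 was at 7.57 CPM at 3i, 5.71 at day 1 and 9.25 at day 2 in f/f. In KO it was at 32.9, 9.47 and 24.0 CPM, in KO+WT at 40.7, 11.1 and 10.2 CPM and in KO+N-KR at 37.3, 17.7 and 12.7 CPM. In f/f Id2 was below the other genotypes in every state, most widely at 3i, where the f/f interval was 6.53 to 8.73 CPM and the lowest of the other 3 was 30.6 to 35.2 CPM in KO. At day 2 the intervals of f/f (8.01 to 10.6 CPM) and KO+WT (8.97 to 11.5 CPM) overlapped. Id2 was higher in KO than in f/f (1.46 ± 0.35, adjusted p = 0.0275) and higher in KO+WT than in f/f (1.24 ± 0.36, adjusted p = 0.0472). Neither line with added EED passed against KO (KO+WT -0.21 ± 0.33, adjusted p = 0.705, and KO+N-KR 0.03 ± 0.32, adjusted p = 0.956). Over the 4 genotypes Id2 fell from 3i to day 1 (-1.35 ± 0.29, adjusted p = 0.00115) and was still lower at day 2 (-0.96 ± 0.29, adjusted p = 0.0101), a call that was lost without KO+WT (-0.59, adjusted p = 0.105) and without KO+N-KR (-0.77, adjusted p = 0.0619). The genotypes moved by different amounts: from 3i to day 1 the log2 difference of Id2 was -0.40 in f/f, -1.79 in KO, -1.86 in KO+WT and -1.07 in KO+N-KR. From 3i to day 2 it was 0.29 in f/f, where Id2 was higher at day 2. It was -0.45 in KO, -1.99 in KO+WT and -1.55 in KO+N-KR. These differences between genotypes were not tested.

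With the states in the same order, Id3 was at 10.5, 19.9 and 17.4 CPM in f/f, at 17.3, 22.9 and 36.1 CPM in KO, at 24.9, 21.3 and 20.8 CPM in KO+WT and at 18.5, 23.8 and 19.4 CPM in KO+N-KR. The KO sample at day 2 was the highest of the 12, with an interval of 33.6 to 38.7 CPM against 22.7 to 27.3 CPM in the next, KO+WT at 3i. The f/f sample was the lowest in each state, although its interval at day 1 (18.0 to 22.0 CPM) overlapped those of KO, KO+WT and KO+N-KR. At day 2 the f/f interval (15.7 to 19.3 CPM) overlapped those of KO+WT (19.1 to 22.7 CPM) and KO+N-KR (17.6 to 21.5 CPM). No comparison of Id3 passed the test. The nearest were KO against f/f (0.68 ± 0.21, adjusted p = 0.0625) and day 2 against 3i (0.40 ± 0.18, adjusted p = 0.0719). The first of these passed without 3i (0.66, adjusted p = 0.0228) and with no filter on low counts (0.68, adjusted p = 0.0349).

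Id4 was at 9.65 CPM at 3i, 2.75 at day 1 and 5.55 at day 2 in f/f and at 16.6, 6.34 and 12.3 CPM in KO. KO+WT held 20.8, 4.37 and 7.18 CPM and KO+N-KR 22.2, 6.12 and 7.04 CPM. The order 3i, day 2, day 1 from high to low was the same in the sums of every genotype. In KO+N-KR, however, the intervals of day 1 (5.10 to 7.28 CPM) and day 2 (5.93 to 8.30 CPM) overlapped. Its replicate 2 library had the reverse order, with 7.35 CPM at day 1 and 5.89 CPM at day 2. The 3i samples (9.65 to 22.2 CPM) did not overlap the day 1 samples (2.75 to 6.34 CPM). Id4 fell from 3i to day 1 (-1.83 ± 0.18, adjusted p = 1.21e-06), rose from day 1 to day 2 (0.72 ± 0.19, adjusted p = 0.00548) and remained below 3i at day 2 (-1.10 ± 0.17, adjusted p = 7.95e-05). In each state f/f was the lowest genotype. At day 1 its interval (2.07 to 3.59 CPM) overlapped that of KO+WT (3.52 to 5.38 CPM). At day 2 the f/f interval (4.60 to 6.64 CPM) overlapped those of KO+WT (6.17 to 8.30 CPM) and KO+N-KR (5.93 to 8.30 CPM). Id4 was higher than in f/f in KO (1.04 ± 0.21, adjusted p = 0.0155) and in KO+WT (0.75 ± 0.21, adjusted p = 0.0431), and neither line with added EED passed against KO (KO+WT -0.29 ± 0.20, adjusted p = 0.357, and KO+N-KR -0.12 ± 0.20, adjusted p = 0.731). At day 2 the 2 lines with added EED were nearer to f/f (7.18 and 7.04 against 5.55 CPM) than to KO. The annotation places 2 antisense genes over Id4, which were not analysed here.

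Of the inhibitors, Smad6, which blocks SMAD1 and the type I receptors, was at 13.2 CPM at 3i, 7.19 at day 1 and 9.34 at day 2 in f/f and at 8.39, 6.58 and 12.2 CPM in KO. It was at 12.6, 5.68 and 9.07 CPM in KO+WT and at 14.2, 5.45 and 8.43 CPM in KO+N-KR. The 4 day 1 samples were the lowest of the 12. KO stood apart in order: it was the lowest genotype at 3i and the highest at day 2, and no genotype comparison passed the test (the largest was KO+WT against f/f, -0.14 ± 0.20, adjusted p = 0.706). Smad6 fell from 3i to day 1 (-0.96 ± 0.17, adjusted p = 0.000287) and rose from day 1 to day 2 (0.65 ± 0.18, adjusted p = 0.00651).

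Smad7, which also dampens TGF-beta and activin signals, was at 83.0 CPM at 3i, 103 at day 1 and 80.1 at day 2 in f/f and at 123, 113 and 87.3 CPM in KO. It was at 132, 84.3 and 75.1 CPM in KO+WT and at 132, 91.0 and 70.8 CPM in KO+N-KR. In f/f it was highest at day 1, and in the other genotypes at 3i. Smad7 was lower at day 2 than at 3i (-0.58 ± 0.12, adjusted p = 0.000979) and than at day 1 (-0.32 ± 0.12, adjusted p = 0.0390), while day 1 against 3i gave -0.26 ± 0.12 (adjusted p = 0.0771). The call between the 2 embryoid body days was lost with library totals alone (-0.27, adjusted p = 0.0698), without replicate 2 (-0.30, adjusted p = 0.0529), without KO (-0.31, adjusted p = 0.0851) and without KO+N-KR (-0.31, adjusted p = 0.0838). Without f/f, the comparison of day 1 with 3i passed (-0.43, adjusted p = 0.00217). No genotype comparison of Smad7 passed, and the largest was KO against f/f (0.26 ± 0.14, adjusted p = 0.253).

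Bambi, the decoy receptor, had the smallest range of the 8 genes, at 11.4 CPM at 3i, 10.6 at day 1 and 8.97 at day 2 in f/f, 12.0, 8.95 and 11.3 CPM in KO, 12.3, 8.65 and 8.52 CPM in KO+WT and 10.6, 7.04 and 10.2 CPM in KO+N-KR. Its 3i samples (10.64 to 12.3 CPM) overlapped those of day 2 and lay above those of day 1 (7.04 to 10.56 CPM), although the Poisson intervals of the nearest pair overlapped, at 9.29 to 12.1 CPM for KO+N-KR at 3i and 9.17 to 12.1 CPM for f/f at day 1. Bambi fell from 3i to day 1 (-0.40 ± 0.12, adjusted p = 0.0103) and passed in no other comparison, with -0.25 ± 0.12 at day 2 against 3i (adjusted p = 0.0826). With library totals alone, day 2 against 3i passed as well (-0.29, adjusted p = 0.0446).

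**Figure D2:**
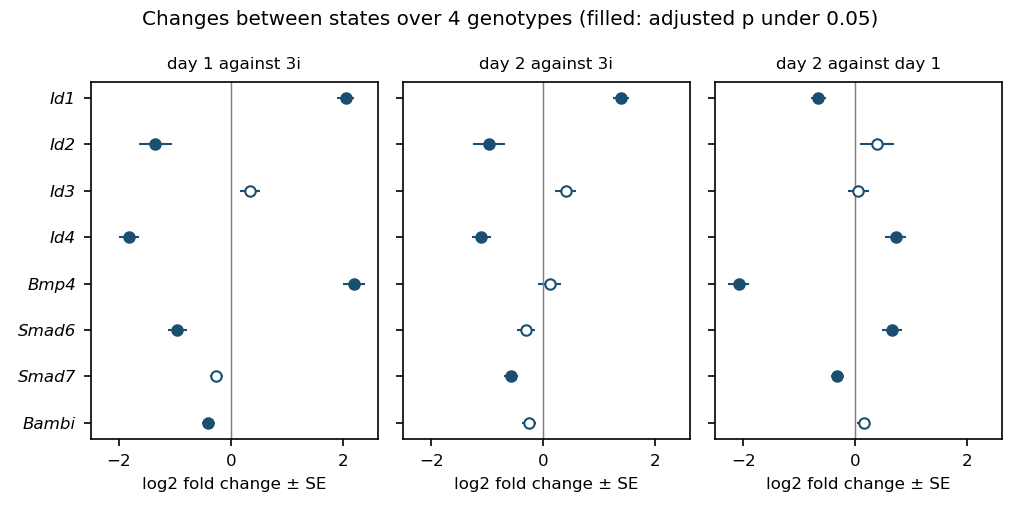
Log2 fold change ± SE (x axis) of each gene (y axis) between states over the 4 genotypes, filled where the adjusted p is under 0.05. Id1 and Bmp4 lie to the right of 0 at day 1 (2.05 and 2.20) and Id2, Id4, Smad6 and Bambi to the left.

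Set side by side, the members did not move as 1 group between states. At day 1 against 3i, 6 of 8 passed, with Id1 and Bmp4 higher and Id2, Id4, Smad6 and Bambi lower, and 66.1% of all genes tested passed, 4777 higher and 5121 lower. At day 2 against 3i, 4 of 8 passed, Id1 higher and Id2, Id4 and Smad7 lower, against 63.9% of all genes. Between day 1 and day 2, 5 of 8 passed, Id4 and Smad6 higher and Id1, Bmp4 and Smad7 lower, against 55.7% of all genes. These shares of members are near or below the background, so the counts say nothing particular about the 8 genes. The median log2 fold change of the members was -0.33, -0.28 and 0.10 in these 3 comparisons, and that of all genes tested was -0.02, 0.02 and 0.02. Feeder fibroblast markers moved with the states: their sum over 14 genes was 477 to 787 CPM at 3i and 54.5 to 133 CPM in embryoid bodies. Against 3i, 10 of 13 tested fell at day 1 and at day 2, while 1 rose at day 1 (Col6a3, 0.67) and 2 rose at day 2 (Thy1, 1.26, and Dcn, 1.49). Lum, a fibroblast proteoglycan, was at 0 to 0.14 CPM in the 12 samples, and the part of feeders in the changes of the members was not tested. In bulk RNA, fewer cells of a type and less RNA per cell cannot be told apart.

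**Figure D3:**
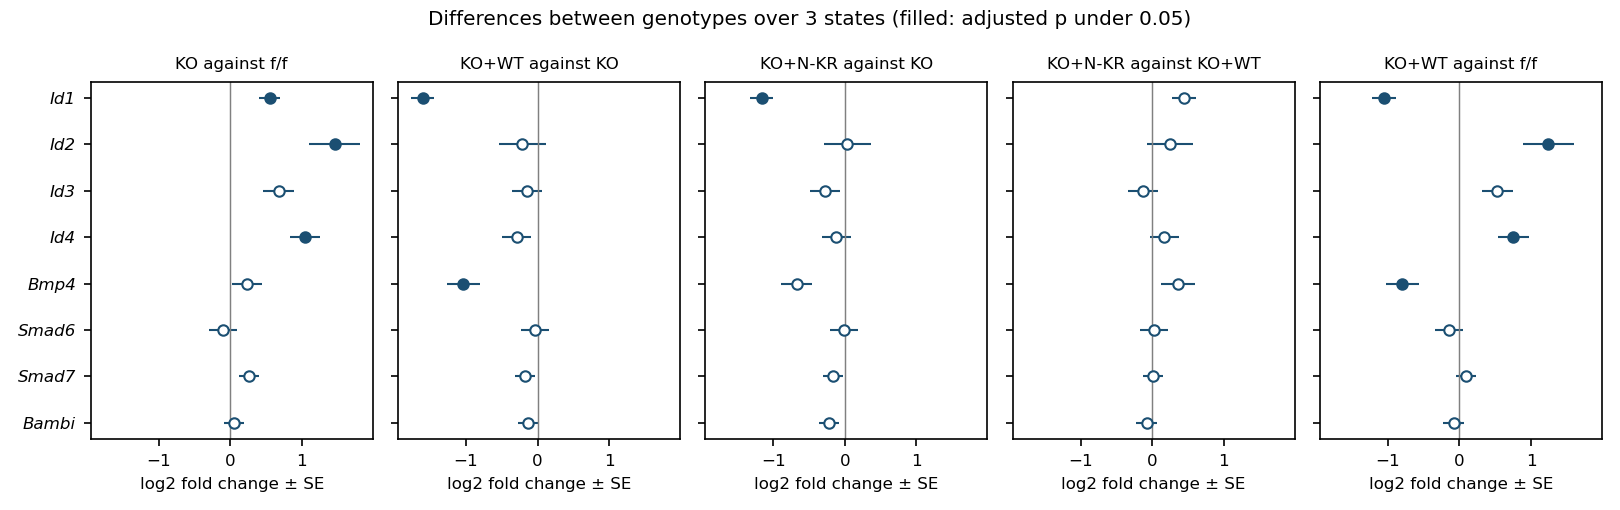
Log2 fold change ± SE (x axis) of each gene (y axis) between genotypes over the 3 states, filled where the adjusted p is under 0.05. Id1 is right of 0 in KO against f/f (0.55) and left of 0 in the comparisons of both lines with added EED against KO (-1.61 and -1.16).

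In KO against f/f, which compares the line labelled Eed KO with the untreated line, 3 of 8 members passed. They were Id1, Id2 and Id4, all higher, and 9.22% of all genes passed, 694 higher and 686 lower. The median over the members was 0.40, and 0.00 over all genes. By size alone within a state (2-fold or more and a level of 5 CPM or more in the higher of the 2 samples, with no test because each group is 1 sample), Id2 was higher in KO at 3i, 4.30-fold, where 0.367% of all genes were past that size. At day 1 Id4 was, 2.26-fold, against 0.387% of genes. At day 2 all 4 Id genes were, Id2 2.58-fold, Id4 2.19-fold, Id3 2.06-fold and Id1 2.05-fold, against 1.44% of genes, while Bmp4, Smad6, Smad7 and Bambi were not past 2-fold in any state. Neither library set alone gave all 4 at day 2: Id3 was 1.83-fold without replicate 1, and Id1 1.98-fold without replicate 2. The Id4 difference at day 1 was 1.99-fold without replicate 1, and its level there lay under a stricter minimum of 10 CPM. Without the day 1 samples edgeR called 0 of 15111 genes and 0 members, with 2272 genes and 4 members under an unadjusted p of 0.05, while the differences in that fit were 0.81 for Id1 (adjusted p = 0.143), 1.71 for Id2 (adjusted p = 0.185) and 0.99 for Id4 (adjusted p = 0.202). The Id1 call was also lost without 3i (0.54, adjusted p = 0.0569), without day 2 (0.28, adjusted p = 0.261), with replicate 1 libraries alone (0.49, adjusted p = 0.0667) and with only the 2 genotypes in the fit (0.55, adjusted p = 0.0788). Of 12 primitive and parietal endoderm markers, 4 rose in KO, and their sum was 373 to 529 CPM in KO and 291 to 427 CPM in f/f, with no marker at 0 counts. Of 6 trophoblast markers tested, Tfap2c rose and Ascl2 fell. The part of such cells in the Id differences was not tested.

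In KO+WT against KO, where wild-type EED was put back, 2 of 8 members passed, Id1 and Bmp4, both lower, and 16.2% of all genes passed. The median of the members was -0.19 and that of all genes 0.01. Id1 was past 2-fold by size in each state, 3.08-fold lower at 3i, 2.80-fold at day 1 and 3.17-fold at day 2. Bmp4 joined it at day 1 (2.96-fold lower) and Id2 at day 2 (2.35-fold lower). At day 2 Bmp4 was 2.03-fold lower but was not counted, because its higher level, 4.90 CPM in KO, lay under 5 CPM. With library totals alone it was counted there (2.07-fold lower). The shares of all genes past that size were 0.541% at 3i, 1.2% at day 1 and 1.94% at day 2. Without 3i, 5 of 8 members passed, all lower, with Id3 (-0.49, adjusted p = 0.0488), Id4 (-0.67, adjusted p = 0.0221) and Smad7 (-0.32, adjusted p = 0.00631) added. Alongside, 7 of 13 feeder markers tested rose in KO+WT against KO (Col1a1 0.66 ± 0.16, adjusted p = 0.0166), with sums of 103 to 787 CPM in KO+WT and 75.9 to 521 CPM in KO. In the same comparison 7 of 12 endoderm markers fell, with sums of 290 to 442 CPM in KO+WT. Their part in the lower Id1 and Bmp4 was not tested.

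In KO+N-KR against KO, 1 of 8 members passed, Id1, which was lower, and 15.7% of all genes passed. The median of the members was -0.19, and 0.01 over all genes. By size, Id1 was lower 2.42-fold at 3i and 2.90-fold at day 2, against 0.728% and 2.44% of all genes, and no member was past 2-fold at day 1, where 1.05% of genes were. At day 2 Id4 was 2.25-fold lower without replicate 1 and Id3 2.09-fold lower without replicate 2, and neither was past 2-fold in the sums. Bmp4 passed in this comparison with no filter on low counts (-0.67, adjusted p = 0.0338) and with DESeq2 (-0.66, adjusted p = 0.0394), with replicate 2 libraries alone (-0.77, adjusted p = 0.0372) and without 3i (-0.78, adjusted p = 0.00890). Without 3i Smad7 passed too (-0.31, adjusted p = 0.00874). Here edgeR and DESeq2 called 0 of 13 feeder markers tested, 3 of which had an unadjusted p under 0.05, and 5 of 12 endoderm markers rose, with sums of 512 to 637 CPM in KO+N-KR against 373 to 529 CPM in KO. Their part in the lower Id1 was not tested.

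Between KO+N-KR and KO+WT, edgeR called 0 of 8 members and 0.561% of all genes, and DESeq2 also called 0 members, with 1 member (Id1) under an unadjusted p of 0.05 in each tool. No member was past 2-fold by size in any state, where 0.361%, 0.301% and 0.167% of genes were at 3i, day 1 and day 2. Id1 and Bmp4 were farthest apart between the 2 lines at day 1, when Id1 was at 24.1 CPM with N-KR and 14.1 CPM with wild-type EED and Bmp4 at 12.0 and 6.71 CPM. The median of the members was 0.10, and 0.00 over all genes. Of 12 endoderm markers, 6 were higher in KO+N-KR. Of 13 feeder markers tested, edgeR called 1 lower in KO+N-KR (Col5a2, -0.62 ± 0.13, adjusted p = 0.0473). In that test 7 feeder markers had an unadjusted p under 0.05, and the median of the list was -0.47. The part of such cells in the levels of the members was not tested. Eed RNA also differed between the 2 lines, at 188 to 387 CPM in KO+WT and 122 to 181 CPM in KO+N-KR. Whether the added EED was counted is not known, and the part of this difference was not tested.

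In KO+WT against f/f, 4 of 8 members passed, Id2 and Id4 higher and Id1 and Bmp4 lower, and 9.14% of all genes passed, 555 higher and 813 lower. The median of the members and of all genes was 0.00 and 0.01. At 3i, Id2 was 5.32-fold, Id3 2.37-fold and Id4 2.14-fold higher in KO+WT and Id1 2.10-fold lower, and 0.828% of all genes were past that size. At day 1, Id1 was 2.65-fold and Bmp4 2.53-fold lower, against 0.735% of genes, and at day 2 no member was past 2-fold, against 0.327% of genes. Without day 1 only Id1 passed, and without 3i the calls of Id2 (0.52, adjusted p = 0.377) and Id4 (0.49, adjusted p = 0.207) were lost. That of Bmp4 was lost with library totals alone (-0.76, adjusted p = 0.0588), and those of Id2, Id4 and Bmp4 under other settings too. The level of Id1 at 3i lay under the stricter minimum of 10 CPM in both lines. Of 13 feeder markers tested, 8 rose in KO+WT, and of 12 endoderm markers 1 rose and 3 fell (median -0.33), with sums of 290 to 442 CPM in KO+WT and 291 to 427 CPM in f/f. Their part in the differences of the members was not tested.

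The rest of the pathway was read from lists of ligands, receptors, SMADs, antagonists, regulators, other responsive genes and E proteins, 53 genes of which 44 were tested. In KO against f/f, 3 of the 44 passed, 1 higher and 2 lower, with a median of 0.13 against 0.00 over all genes, of which 9.22% passed. None was a ligand, receptor, SMAD or secreted antagonist in edgeR, where 8 of these 25 had an unadjusted p under 0.05 and DESeq2 called 2. Dusp9, a phosphatase of ERK that BMP signals induce in stem cells, rose in KO (0.68 ± 0.14, adjusted p = 0.0185). Its levels were 69.6 CPM at 3i, 96.8 at day 1 and 161 at day 2 in f/f and 71.5, 165 and 357 CPM in KO, close at 3i and apart in embryoid bodies. In the lines with added EED it was again near f/f, at 53.7, 99.1 and 163 CPM in KO+WT and 59.1, 93.0 and 160.0 CPM in KO+N-KR, below KO in both (-0.79 ± 0.14 in each, adjusted p = 0.00297 and 0.00319). Skil, a repressor of SMAD transcription, fell in KO (-0.32 ± 0.07, adjusted p = 0.0202), as did the E protein gene Tcf4 (-0.26 ± 0.07, adjusted p = 0.0413).

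In KO+WT against KO, 9 of 44 passed, 4 higher and 5 lower (median -0.08), against 16.2% of all genes. The ligand Bmp7 fell (-0.63 ± 0.18, adjusted p = 0.0280). The receptors Bmpr1a (-0.25 ± 0.06, adjusted p = 0.0167) and Bmpr2 (-0.53 ± 0.13, adjusted p = 0.0173) fell, 2 of 7 tested, and so did Smad1 (-0.60 ± 0.08, adjusted p = 0.000338), 1 of 4 SMADs. Smad1 was at 28.2 CPM at 3i, 24.3 at day 1 and 25.9 at day 2 in KO and at 19.8, 15.8 and 16.3 CPM in KO+WT, with no overlap, and f/f lay between them in each state, at 25.4, 20.6 and 23.3 CPM. Fst, which encodes the secreted antagonist follistatin, rose (1.10 ± 0.20, adjusted p = 0.00299), as did Skil (0.44 ± 0.07, adjusted p = 0.00128), Tcf4 (0.28 ± 0.07, adjusted p = 0.0193) and the homeobox gene Msx1 (1.35 ± 0.31, adjusted p = 0.0116), which was at 0.21 to 1.70 CPM in these lines. In KO+N-KR against KO, 8 of 44 passed, 2 higher and 6 lower (median -0.02), against 15.7% of all genes. Bmp7 (-0.77 ± 0.18), Bmpr1a (-0.26 ± 0.06), Bmpr2 (-0.56 ± 0.13), Smad1 (-0.53 ± 0.08), Dusp9 and Ski, a SMAD corepressor (-0.20 ± 0.05), fell and Fst (0.97 ± 0.20) and Msx1 (1.32 ± 0.32) rose. These comparisons, and KO against f/f, share the KO samples. The medians of the receptor list were -0.25 and -0.15 and those of all genes 0.01 in each. In KO+WT against f/f, 4 of 44 passed, against 9.14% of all genes. Smad1 fell (-0.42 ± 0.08, adjusted p = 0.00442) and the antagonists Grem1 (1.61 ± 0.26, adjusted p = 0.00193) and Fst (1.00 ± 0.20, adjusted p = 0.00721) and the co-receptor Rgma (0.85 ± 0.23, adjusted p = 0.0327) rose. Between KO+N-KR and KO+WT edgeR and DESeq2 each called 0 of 44, with 5 under an unadjusted p of 0.05 in edgeR.

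**Figure D4:**
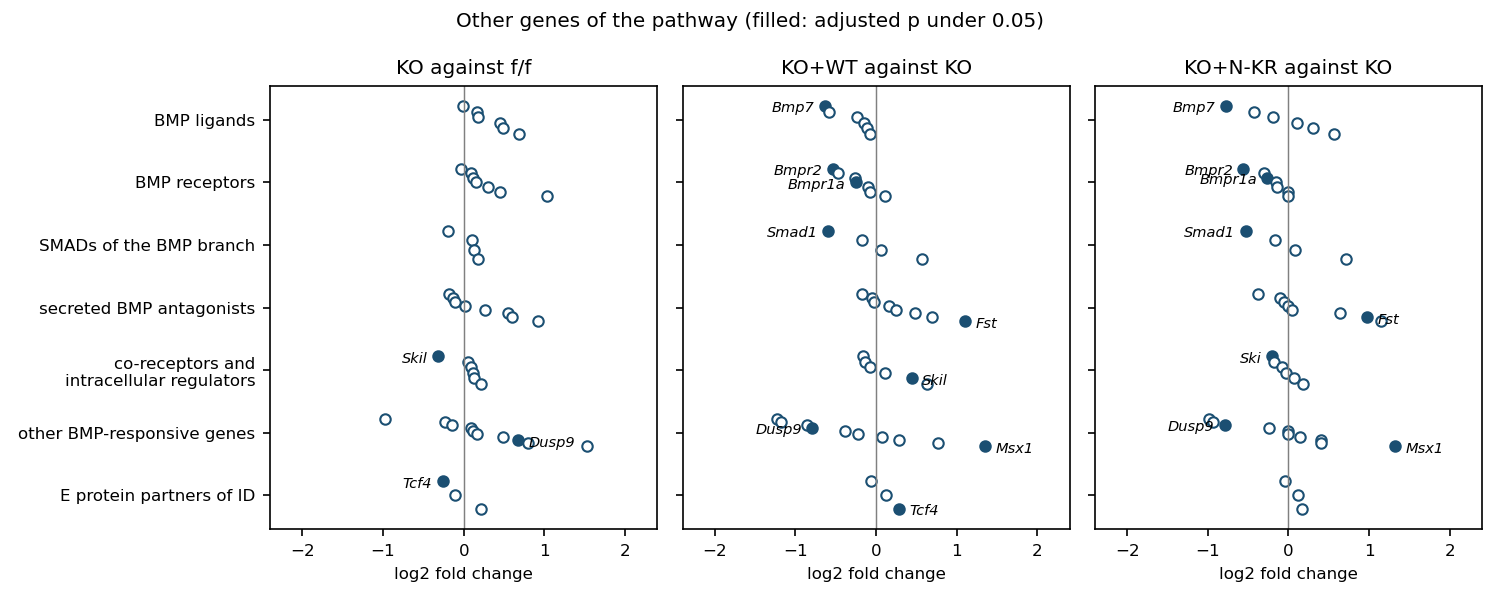
Log2 fold change (x axis) of the other pathway genes, by list (y axis), in 3 genotype comparisons over the 3 states, filled and named where the adjusted p is under 0.05. Smad1 lies at -0.60 in KO+WT and -0.53 in KO+N-KR against KO, and Dusp9 at 0.68 in KO against f/f and -0.79 in both others.

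Between states, 26 of the 44 passed at day 1 against 3i (11 higher and 15 lower), 26 at day 2 against 3i (14 and 12) and 19 at day 2 against day 1 (15 and 4). Over all genes the shares were 66.1%, 63.9% and 55.7%, above those of the list, so these counts say nothing particular about the pathway. Bmp7, the most abundant of the other ligands at 3i, fell at day 1 (-2.78 ± 0.17, adjusted p = 1.56e-08), from 14.7 to 2.14 CPM in f/f, and rose again at day 2 (2.36 ± 0.17, adjusted p = 2.51e-07). Bmp4 thus peaked in the state in which Bmp7 was lowest. Of 7 receptors, 1 rose and 2 fell at day 1 against 3i, and at day 2 3 rose and 1 fell, with Bmpr1b up (2.10 ± 0.31, adjusted p = 5.61e-05) to 0.88 to 2.34 CPM. Of 8 antagonists tested, 5 fell at day 1, among them Twsg1, Nbl1, Dand5 and Chrd, and 4 at day 2, and 1 rose at each. Skil rose at day 1 (1.33 ± 0.06, adjusted p = 1.46e-09) and day 2 (1.75 ± 0.06, adjusted p = 1.63e-10). The responsive genes moved in opposite directions. At day 2 against 3i, Dusp9 rose (1.64 ± 0.13, adjusted p = 1.48e-07) and so did Msx1 (2.28 ± 0.29, adjusted p = 1.26e-05), while Gata2 (-2.99 ± 0.39, adjusted p = 1.95e-05) and Atoh8 (-2.36 ± 0.43, adjusted p = 0.000297) fell. Gata2 was at 11.2 CPM in f/f at 3i and 0.55 CPM at day 2.

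Some members had alike patterns over the 12 samples, given as a description because samples share lines and states. Log2 CPM of Id1 and Bmp4 had Pearson's r of 0.77 (Spearman's rho 0.78), and both were highest at day 1. Id2 and Id4 had r of 0.87 (rho 0.73), both high at 3i in the 3 treated lines. Id4 and Smad6 (r = 0.72) and Smad6 and Bambi (r = 0.71) also ran together. Id1 ran opposite to Id4 (r = -0.68) and to Id2 (r = -0.52), so the 4 Id genes did not share 1 pattern. Id3 was related to none of the other members above r of 0.38.

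**Figure D5:**
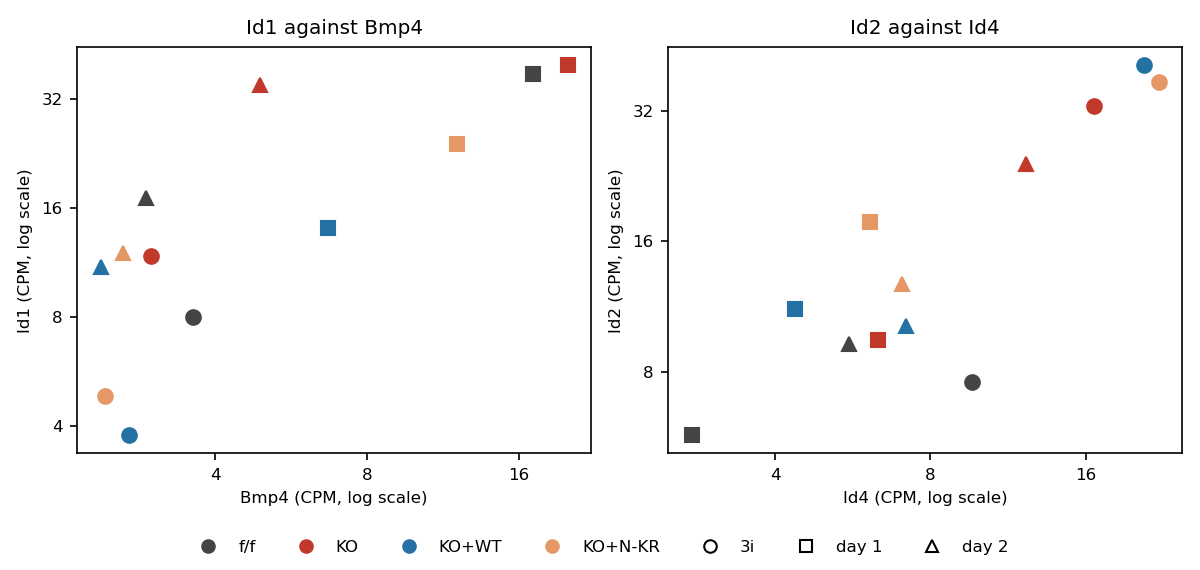
Level of Id1 against Bmp4 and of Id2 against Id4 (both axes in CPM, log scale) in the 12 samples, with genotype by colour and state by shape. At day 1 Id1 and Bmp4 share the order KO, f/f, KO+N-KR, KO+WT, and KO at day 2 holds 35.0 CPM of Id1 with 4.90 CPM of Bmp4.

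Among all genes tested, those with the pattern most like a member's over the 12 samples were Anpep (r = 0.98), Fam82a1 (0.96) and BC006779 (0.96) for Id1, and Gnpnat1 (0.98), Cog8 (0.97) and Ric8b (0.96) for Bmp4. Id2 was nearest to Rapgef6, Pik3c2a and Ash1l (r = 0.93 to 0.94) and Id4 to AI661453, Tuft1 and Pag1 (0.96 to 0.97). Id3 had no gene above 0.86, its nearest being Gem, Dux and Zfa. Smad6 was nearest to Zfp395, Ero1l and Rad51ap1 (0.96 to 0.97), Smad7 to Eif2c2, Ets2 and Osbpl11 (0.95 to 0.96) and Bambi to Evc2, Myl7 and Pgr15l (0.88 to 0.90). They were chosen as the highest over all genes tested, so their r values are high by choice and are given as a description.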

How the data were processed

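The authors deposited 1 table of raw counts per gene symbol, in 30 columns, of which the 24 whose names match the labels were used and 6 were not used. Per the submitters' processing notes, reads were handled with STAR 2.5.2b and DESeq2 on mm9. How the reads were counted, with which annotation and strand setting, is not stated there. The 2 libraries of each group were summed, since they differed by little more than sampling noise and nothing says that they came from separate cultures. The 12 sums were fitted with edgeR 4.0.16 (R 4.3.3, TMM, filterByExpr by genotype, quasi-likelihood F-test, Benjamini-Hochberg adjustment) in an additive model of genotype and state with 6 residual degrees of freedom and a common coefficient of variation of 7.94%. CPM used TMM scaling, and ratios within a state a prior count of 2. An SE is the size of the log2 fold change over the square root of F. The test was checked on simulated counts with known changes, the same in every state and with the same spread for all genes. That check does not cover differences between genotypes that vary between states. Members are named with all values, other pathway genes when past the threshold (at most 4 a list and comparison), and the 3 genes most correlated with each member. The members, lists and the additive model were chosen with earlier results of these data known. Alternatives were another scaling, no filter, DESeq2 1.42.0, single libraries, 24 libraries unsummed, a replicate block, and leaving out a state or genotype. RefSeq promoters (GRCm38.p6) were matched by symbol only.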

Additional observations from a re-analysis of the deposited data

Results flagged for a closer look

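In the following cases both libraries of 1 genotype lay above both libraries of the other in 1 state and below them in another. The 2 libraries of a group are counted as 1 sample elsewhere here, and some of these differences lay within counting error. The Poisson intervals of the genotypes overlapped in both states for Smad7 in KO+N-KR against KO+WT and for Bambi in both comparisons listed. In 1 of the 2 states they overlapped for Id2, Id3 and Bmp4 in KO+N-KR against KO+WT. The same held for Smad7 in KO+WT and in KO+N-KR against KO. Each value is the log2 difference between the genotypes in the first state named less that in the other, from 1 sample a group, and none of these differences between states was tested.

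For KO+WT against KO, the difference at 3i less that at day 2 was 1.54 for Id2 (0.31 at 3i and -1.23 at day 2), 1.31 for Id3 (0.52 and -0.79), 1.09 for Id4 (0.32 and -0.77) and 1.00 for Smad6 (0.58 and -0.43). For Smad7 it was 0.53 at 3i less day 1 (0.11 and -0.42).

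For KO+N-KR against KO, Id2 gave 1.81 at day 1 less day 2 (0.90 and -0.91). At 3i less day 2, Id4 gave 1.21 (0.41 and -0.79) and Smad6 1.29 (0.76 and -0.53), and Smad7 gave 0.41 at 3i less day 1 (0.10 and -0.31).

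For KO+N-KR against KO+WT, the difference at day 1 less that at 3i was 0.79 for Id2 (0.66 and -0.12), 0.58 for Id3 (0.16 and -0.42) and 0.99 for Bmp4 (0.84 and -0.15). Smad7 gave 0.20 at day 1 less day 2 (0.11 and -0.09) and Bambi 0.55 at day 2 less day 1 (0.25 and -0.29).

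Smad6 in KO against f/f gave 1.03 at day 2 less 3i (0.38 and -0.65), and Bambi 0.57 at day 2 less day 1 (0.33 and -0.24). Smad7 in KO+WT against f/f gave 0.95 at 3i less day 1 (0.67 and -0.29). In KO, the levels of Id2, Id3, Id4 and Smad6 at day 2 entered most of the larger values.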

How the results depend on the processing

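No called difference of a member reversed under the alternatives run. The number of members called moved as follows. Unsummed, with 24 libraries as 12 groups, it was 7 for day 2 against 3i, 5 for KO against f/f, for KO+WT against KO and for KO+N-KR against KO, and 2 for KO+N-KR against KO+WT. That fit takes the small spread between libraries of a group as its error (coefficient of variation 0.988%), and called 7201, 7493, 7543, 2918 and 6571 genes in KO against f/f, KO+WT against KO, KO+N-KR against KO, KO+N-KR against KO+WT and KO+WT against f/f, where the 12 sums gave 1380, 2422, 2346, 84 and 1368. With the replicate number as a replicate block the members called were again 7, 5, 5, 5 and 2, and the genes called 7225, 7526, 7575, 2980 and 6606. The numbers do not pair the libraries: over 66 pairs of same-numbered libraries, deviations from the group means correlated at -0.03 to 0.06 (median 0.01). KO+N-KR against KO gave 2 members with no filter on low counts and 2 with DESeq2, Bmp4 being added, and KO+WT against f/f gave 2 with only the 2 genotypes in the fit. Leaving out a replicate, state or genotype gave 6 to 7 members for day 1 against 3i, 3 to 5 for day 2 against 3i, 4 to 5 for day 2 against day 1, 0 to 3 for KO against f/f, 1 to 5 for KO+WT against KO, 1 to 3 for KO+N-KR against KO, 0 to 0 for KO+N-KR against KO+WT and 1 to 4 for KO+WT against f/f. Fewer samples also lowered the genes called: without day 1 they were 0, 225, 328, 30 and 175 in the 5 genotype comparisons in the order above, without day 2 339, 1263 and 1105 in the first 3, and without replicate 1 808 in KO against f/f. With only the 2 genotypes in the fit they were 782 in KO against f/f, 904 in KO+N-KR against KO and 200 in KO+N-KR against KO+WT, where DESeq2 called 132. Library totals alone moved the median of all genes at day 1 against 3i from -0.02 to -0.11, and under them Smad7 (-0.34, adjusted p = 0.0223) passed there. The 19 size calls within states (of 120) became 17 to 20. Every result within a state rests on 1 sample a group, and Bmp4 and Id4 had as few as 50 and 54 counts in a sample.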
